A study of Mus musculus with 2 samples.

Results

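The genes described here are the receptor subunits for type I interferon and interferon gamma, and 4 members of the SOCS family of feedback inhibitors. They are 8 genes of the 24203 with a symbol on the array. They were taken by name from the gene annotation of the array files: Ifnar1, Ifnar2, Ifngr1, Ifngr2, Socs1, Socs2, Socs3 and Cish. The 8 genes had 16 transcript rows between them, nearly every row of the array being a summary of 3 probes, and every one of the 16 rows is given. RNA came from sorted LT-HSCs, the long-term haematopoietic stem cells of bone marrow, of C57BL/6 mice at 8 weeks of age. One group was cia-cGAS WT and the other cia-cGAS knockout, which lacks a circular RNA of that name. No treatment is named for either group, and both share strain, age, tissue and sort. Each group had 1 array, so no value has a replicate, no test between the groups was possible and each difference describes these 2 samples. The sources used here do not give the sort markers, the number of mice or any pooling. The comparison asks how the transcripts of these cells differ when the circular RNA is missing.

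Type I interferons bind a receptor made of IFNAR1 and IFNAR2, and interferon gamma binds a receptor made of IFNGR1 and IFNGR2. The receptors carry JAK kinases, which phosphorylate STAT factors, and these enter the nucleus and switch on target genes. SOCS proteins and CIS, the product of Cish, are made in response to that signal: their SH2 domain binds phosphorylated receptors or kinases, and their SOCS box recruits a ubiquitin ligase. SOCS1 and SOCS3 can also block JAK kinases directly, whereas CIS and SOCS2 are best known as brakes on receptors that signal through STAT5, such as those for growth hormone. In blood stem cells, interferon signalling is known to drive quiescent cells into cycle.

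The promoters of the genes are shown first, because 2 kinds of short element link interferon receptors to their targets. The RefSeq promoter table (GRCm38.p6) held 7 of the 8 genes, Socs2 being the one without an entry, and each entry covers 300 bases around the start of the gene. A GAS element, the site of STAT dimers, was searched as TTCNNNGAA, which reads the same on both strands. An ISRE, the site of the complex that holds STAT2 and IRF9, was searched as GAAANNGAAA on one strand and TTTCNNTTTC on the other. Matches to GAS occurred in 8.30% of all 32851 promoters and matches to ISRE in 3.44%. Of the 7 genes, 4 had a GAS match and 1, Socs1, had an ISRE match. The stretches below carry these matches in capitals, run 5′ to 3′ on the strand of the gene, and were chosen to show which members hold an element.
Socs1 (chr16:10785574-10785649, minus strand, 2 overlapping ISRE matches): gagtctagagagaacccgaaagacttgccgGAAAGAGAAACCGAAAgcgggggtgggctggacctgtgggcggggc
Socs3 (chr11:117969482-117969550, minus strand, GAS): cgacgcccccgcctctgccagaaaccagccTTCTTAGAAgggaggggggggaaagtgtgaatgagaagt
Ifnar2 (chr16:91372539-91372607, plus strand, GAS): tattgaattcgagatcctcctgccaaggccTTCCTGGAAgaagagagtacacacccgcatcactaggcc
Cish (chr9:107296654-107296683, plus strand, 2 GAS matches): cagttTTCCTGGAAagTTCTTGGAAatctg
Ifnar1 (chr16:91485200-91485229, plus strand, GAS): ggcgggggcgTTCACGGAAggggcggggcg

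The ISRE matches of Socs1 began 83 and 77 bases before its start, and the GAS match of Socs3 began 154 bases before. That of Ifnar2 lay 214 bases before, that of Ifnar1 spanned the start itself, and both matches of Cish lay just past it. Ifngr1 and Ifngr2 had neither element in this window. These are matches of letters and not measured binding. For scale, an ISRE match was found in 13.3% of the 495 promoters of genes higher in the knockout by 2-fold or more, against 3.39% of the 8437 promoters of all genes above the detection floor on both arrays. The shares for a GAS match were 10.7% and 6.92%.

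Signal was read against a detection floor, the 95th percentile of the rows of odour, pheromone and taste receptor genes of that array. It lay at 9.11 in log2 intensity for the wild-type array and 8.97 for the knockout array, and 9239 genes passed it on both arrays. Of the 8 members, 6 passed on both arrays and 2, Socs1 and Cish, passed on neither. None of the 6 members differed by 2-fold in either direction, where 9.56% of the 9239 genes did, 5.37% being higher in the knockout and 4.19% lower. At 1.5-fold, 11.4% of all genes were higher in the knockout and again 0 of the 6 members, Ifngr2 standing just under that line at 1.49-fold. The median difference of the 6 members, knockout minus wild type, was 0.13 on the log2 scale, and that of all genes above both floors was -0.04. In place of replicates, the only spread these arrays offer is that between rows of the same gene, whose differences had a pooled SD of 0.37 over 2892 genes.

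**Figure D1:**
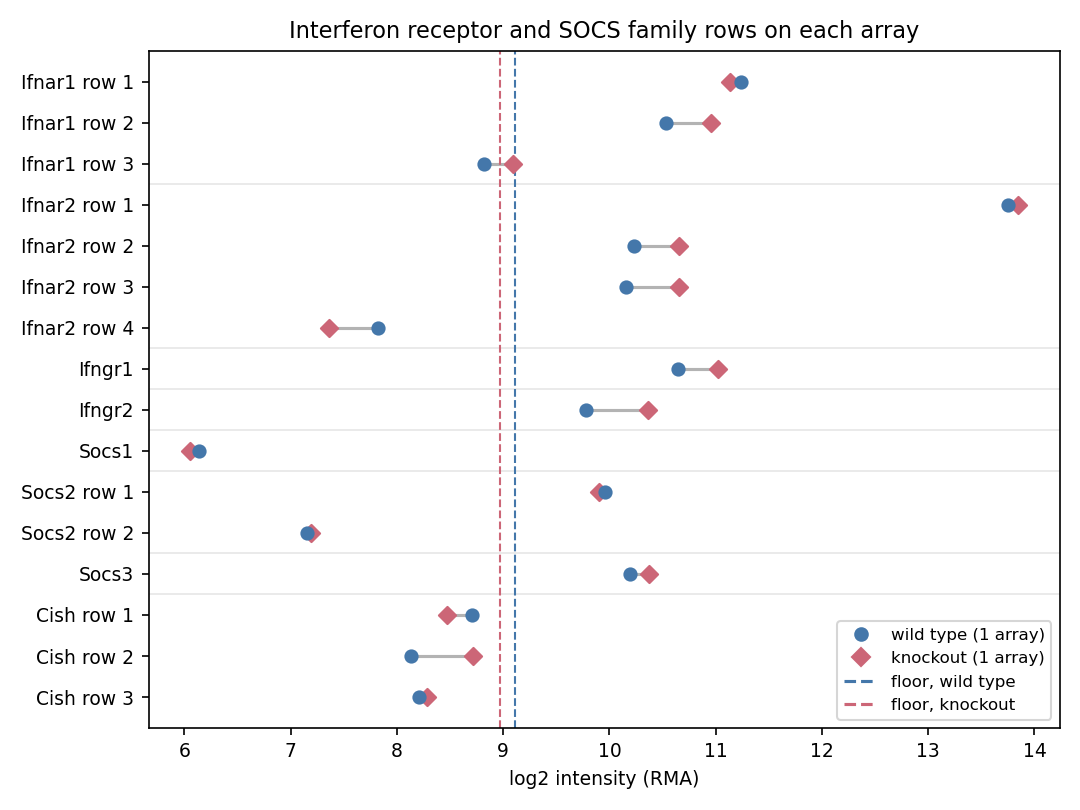
Log2 intensity of each of the 16 rows of the 8 genes on the wild-type array (circles) and the knockout array (diamonds), rows of a gene numbered from the brightest, with the detection floor of each array as a dashed line. Each pair of points lies within 1 log2 unit, and the rows of Socs1 and Cish sit to the left of both floors.

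Ifnar1 encodes the chain of the type I receptor that carries the kinase TYK2. Its 3 rows all map to chromosome 16 of the MM9 assembly, the brightest from 91485493 to 91507686 (gene ID 15975). The brightest row had a linear intensity of 2415 on the wild-type array and 2250 on the knockout array, or 11.24 and 11.14 on the log2 scale, a difference of -0.10. The next row read 10.53 and 10.96, a difference of 0.42 in the other direction. The dimmest row read 8.82 and 9.09, which passed the floor of the knockout alone and did not reach that of the wild type, so no fold is given. The rows of Ifnar1 thus did not share a direction, and averaging all 3 turned the sign, giving 0.20. Differences of this size were common: 81.2% of genes above both floors differed by at least as much in size as the brightest row.

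Ifnar2 encodes the ligand-binding chain, whose membrane form carries JAK1, and the mouse gene is known to make a soluble form of the receptor as well. Its brightest row measured 13796 on the wild-type and 14749 on the knockout array, 13.75 and 13.85 on the log2 scale, a difference of 0.10 (gene ID 15976, MM9 chromosome 16 from 91373027 to 91394288). A second row that ends near the same base, at 91394285, lay below both floors at 7.82 and 7.36. The other rows end further downstream, at 91405834 and 91405611. They went from 10.23 in wild-type to 10.65 in knockout cells, and from 10.16 to 10.66, differences of 0.42 and 0.50. The rows with the downstream end were therefore higher in the knockout by more than the bright row with the upstream end, and the gap of the first pair, 0.32, was smaller than the row spread of 0.37. That of the other pair, 0.41, was larger than it. The row spread is that of single rows, and a gap between 2 rows varies more, so neither gap sets the ends apart. For comparison, 2 rows of Ifnar1 with nearly the same ends differed by -0.10 and 0.42. The annotation of the files does not say which row encodes the membrane form, and intensities of different probes are not comparable, so the levels of the rows are not ranked.

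Ifngr1 and Ifngr2, the ligand-binding and the signalling chain of the interferon gamma receptor, had the largest differences of the 6 genes above both floors when the brightest row stands for each gene, and each had a single row. Ifngr1 measured 1597 in wild-type and 2074 in knockout cells, 10.64 and 11.02 on the log2 scale, a difference of 0.38 or 1.30-fold (gene ID 15979, MM9 chromosome 10 from 19311862 to 19329758). Ifngr2, which carries JAK2, read 880 and 1315, or 9.78 and 10.36, a difference of 0.58 or 1.49-fold (gene ID 15980, chromosome 16 from 91547338 to 91564252). Both were brighter on the knockout array, and neither has a second row to set beside it. Of all genes above both floors, 18.7% had a higher difference than Ifngr1 and 11.6% had a higher one than Ifngr2.

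Socs1, the inhibitor most closely tied to interferon receptors, was below the floor on both arrays. Its single row measured 70.3 in wild-type and 66.4 in knockout cells, 6.14 and 6.05 on the log2 scale (gene ID 12703, MM9 chromosome 16 from 10784176 to 10785626). These values lie far under the floors of 9.11 and 8.97, so they give no level and no fold. Socs1 is also the member whose promoter held the pair of overlapping ISRE matches printed above. A row of 3 probes that is dim on both arrays does not show that the transcript was absent.

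Socs3, which restrains receptors of the gp130 and G-CSF type, was above the floor on both arrays. It measured 1174 in wild-type and 1323 in knockout cells, 10.20 and 10.37 on the log2 scale, a difference of 0.17 or 1.13-fold (gene ID 12702, MM9 chromosome 11 from 117827400 to 117830476). The knockout value was the higher one, by less than the spread between rows of a gene. Socs2, a brake on growth hormone and STAT5 signalling that is also known as a target of STAT5, had a bright row at 994 and 958, or 9.96 and 9.90. Its difference was -0.05, and 90.3% of genes above both floors differed by at least as much in size (gene ID 216233, chromosome 10 from 94875260 to 94879462). Its other row was below both floors, at 7.15 and 7.19.

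Cish, a classic STAT5 target, had 3 rows, all below both floors (gene ID 12700, MM9 chromosome 9, the brightest from 107199227 to 107204293). Wild-type and knockout values were 8.71 and 8.47, 8.14 and 8.72, and 8.21 and 8.28. One row was higher in the wild type and the others were higher in the knockout, so the rows of Cish did not share a direction. Its differences of -0.24, 0.58 and 0.07 come from signal under the floor and are given only as read.

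**Figure D2:**
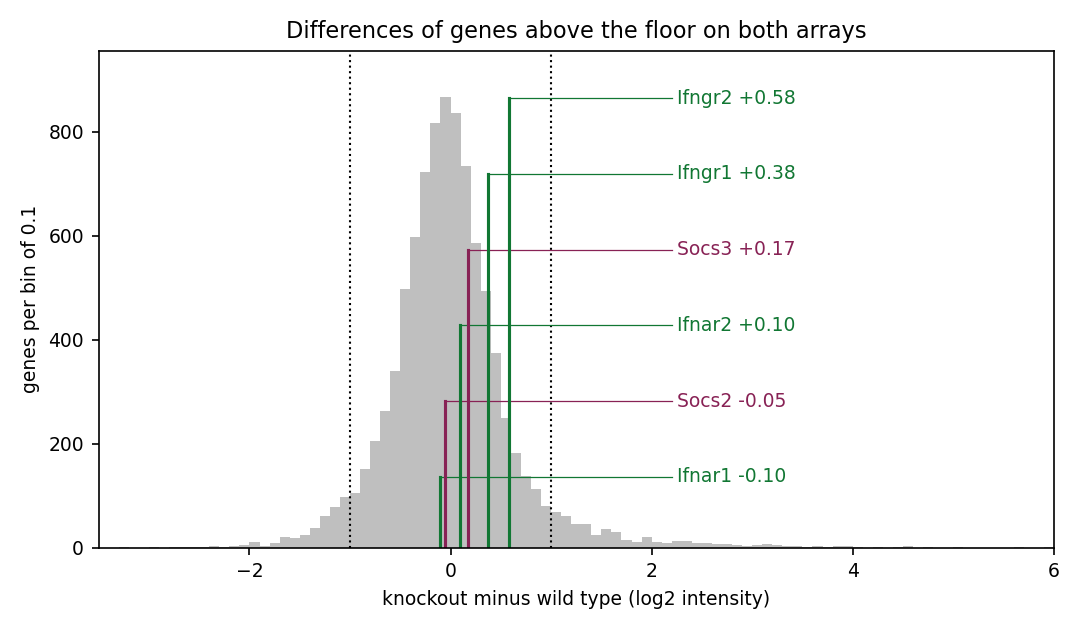
Histogram of the knockout minus wild type difference, in log2 intensity, of the 9239 genes above the floor on both arrays, with the 6 members that passed marked by lines (green for receptors, purple for SOCS genes; line height has no meaning). Dotted lines mark 2-fold, and all 6 members lie between them, from -0.10 for Ifnar1 to 0.58 for Ifngr2.

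In order of difference, the 6 genes ran Ifngr2, Ifngr1, Socs3, Ifnar2, Socs2 and Ifnar1, from 0.58 down to -0.10. Gaps between neighbours in that order were 0.05 to 0.20, each smaller than the row spread of 0.37, so no neighbours were set apart. Of the 9 member rows above both floors, 7 were higher in the knockout and 2, the bright rows of Ifnar1 and Socs2, were lower. By the brightest row of each gene, 4 of the 6 genes were higher in the knockout and 2 were lower, and 46.4% of all genes above both floors were higher. No member reached 2-fold, so no gene was sought for its likeness to one.

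Ifnar2, Ifnar1 and Ifngr2 lie side by side on chromosome 16, in a block of 191 kb that also holds Il10rb, the second chain of the interleukin 10 and interferon lambda receptors. The brighter row of Il10rb went from 11.71 in wild-type to 12.58 in knockout cells, a difference of 0.86 or 1.82-fold. Its other row was below both floors, at 6.22 and 7.76. Il10rb and the interferon receptor genes encode class II cytokine receptors. Of 7 such genes measured outside the members, Il10rb alone passed both floors, while 1 passed the wild-type floor and 4 the knockout floor. In the order of the chromosome, the brightest rows of Ifnar2, Il10rb, Ifnar1 and Ifngr2 differed by 0.10, 0.86, -0.10 and 0.58. The block held no row above both floors that reached 2-fold. A transcript without a gene symbol, which overlaps the downstream end of the brighter Il10rb row, passed the floor of the knockout alone, at 8.46 and 9.59. Tmem50b, the next named gene downstream of the block, differed by 0.23. These neighbours were found by position and chosen after their values were known.

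**Figure D3:**
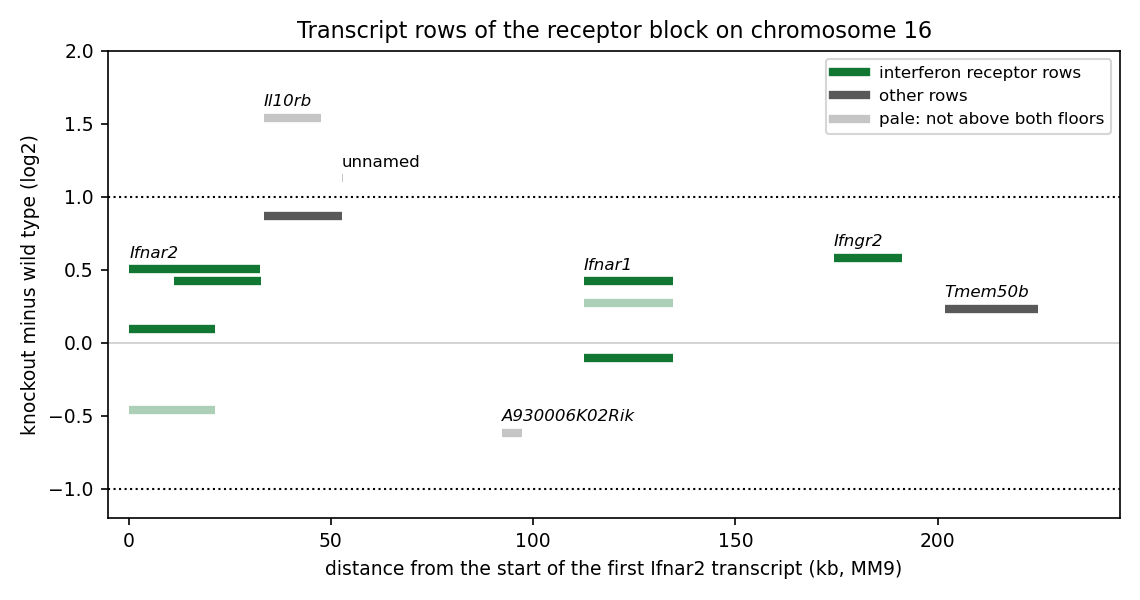
Transcript rows of the receptor block on chromosome 16, placed by distance in kb from the start of the first Ifnar2 transcript (MM9), each bar spanning its transcript at the height of its knockout minus wild type difference in log2 intensity. Rows not above both floors are pale, and the bars above both floors run from -0.10 for Ifnar1 to 0.86 for Il10rb, inside the dotted 2-fold lines.

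The kinases and transcription factors that these receptors act on are set beside them for comparison. Of 11 JAK, STAT and Irf9 genes read, 8 were above both floors, 2 were higher by 2-fold or more in the knockout, 0 were lower by that much, and the median difference was 0.33. Stat2 was 6.88-fold higher, from 11.66 to 14.44. Jak2, the kinase of the Ifngr2 chain, was 2.80-fold higher, from 12.09 to 13.58. Every difference of a receptor row above both floors, at most 0.58, was smaller than these, and the difference between the gene groups could not be tested with 1 array a group. Irf9 differed by 0.46 (its other row above both floors 0.81), and Jak1 and Tyk2 were chosen after their values were seen. Jak1 differed by 0.28, and Tyk2 passed the floor of the knockout alone.

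Genes known to carry GAS sites were mixed. Of 8 listed, 5 were above both floors, 2 were higher by 2-fold or more, 0 were lower by that much, and the median was 0.72. These were the guanylate-binding protein genes Gbp2 and Gbp3, 14.4-fold and 12.5-fold higher, and the transcription factor gene Irf1 was 1.64-fold higher. Fcgr1, an Fc receptor gene also used as a monocyte marker, was seen in the knockout alone and was at least 2.10-fold higher. Of 9 interferon genes measured, the ligands of these receptors and their relatives, 2 were above both floors, Ifna1 with a difference of 0.51 and Ifnk with -0.13. Another 2 were read above the floor of the knockout array only, Ifnb1 at 6.13 and 9.34, at least 1.17-fold up, and Ifna2 at 7.21 and 8.99, which gives no fold. The interferon alpha family shares enough sequence that single members are uncertain.

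The remaining SOCS genes and other inhibitors were read in the same way. Of 3 further SOCS genes measured, Socs5 differed by 0.62, Socs6 by -0.07, and Socs4 was below both floors. Of 9 other inhibitors of JAK-STAT signalling above both floors, 1 was higher by 2-fold or more, 0 were lower by that much, and the median was 0.28, or 0.02 with the rows of a gene averaged. That gene was Ptprc, which encodes the phosphatase CD45 of blood cells, at 2.36-fold (rows from 0.77 to 1.24). Ptpn6, the gene of the phosphatase SHP1, differed by 0.67 and Pias4, an inhibitor of STAT factors, by -0.70. The ubiquitin ligase partners of the SOCS box had 0 of 3 past 2-fold, with Eloc at 0.33, Elob at -0.03 and the scaffold gene Cul5 at -0.64 (its other row above both floors -0.16).

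Genes that act on the turnover of IFNAR1 differed in both directions. Of 6 above both floors, Btrc was 2.76-fold lower and Fbxw11 2.23-fold higher, both encoding related F-box proteins of the ligase that marks phosphorylated IFNAR1 for degradation. Fbxw11 had 2 rows above both floors, at 1.15 and 1.42, and Btrc had 1. Prmt1, whose protein binds the receptor, differed by -0.83, and the median of the list was -0.19, or 0.19 with the rows of a gene averaged.

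Receptors and targets tied to Socs2, Socs3 and Cish were also read. Of 5 receptor genes that signal through STAT5 and passed both floors, 0 were higher by 2-fold or more, 1 was lower by that much, and the median was 0.33. The one lower gene was Il7r, the interleukin 7 receptor of lymphoid cells, at 2.40-fold, while the shared chain gene Il2rg differed by 0.66. Of 5 receptor genes that signal through STAT3, none passed 2-fold and the median was 0.02, or -0.04 with a floor at the median of all rows, with Csf3r, the G-CSF receptor, at 0.69 and Il6ra at -0.68. STAT5 targets other than Cish and Socs2 had 0 of 5 past 2-fold and a median of 0.65. By the brightest row all 5 had positive differences, where 46.4% of all genes above both floors did. The largest were Pim1 at 0.71 (rows from 0.10 to 0.88), Bcl6 at 0.70 and Cdkn1a at 0.65. Bcl2l1, named after its values were seen, differed by only 0.02, and its rows above both floors ran from -0.53 to 0.05. Id1, also on that list, passed the floor of the wild-type array only, at 9.59 and 8.91, and knockout cells had at least 1.54-fold less of it. Pim2 and Osm, of the same list, passed the floor of the knockout array only, at least 1.23-fold and 1.08-fold higher.

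**Figure D4:**
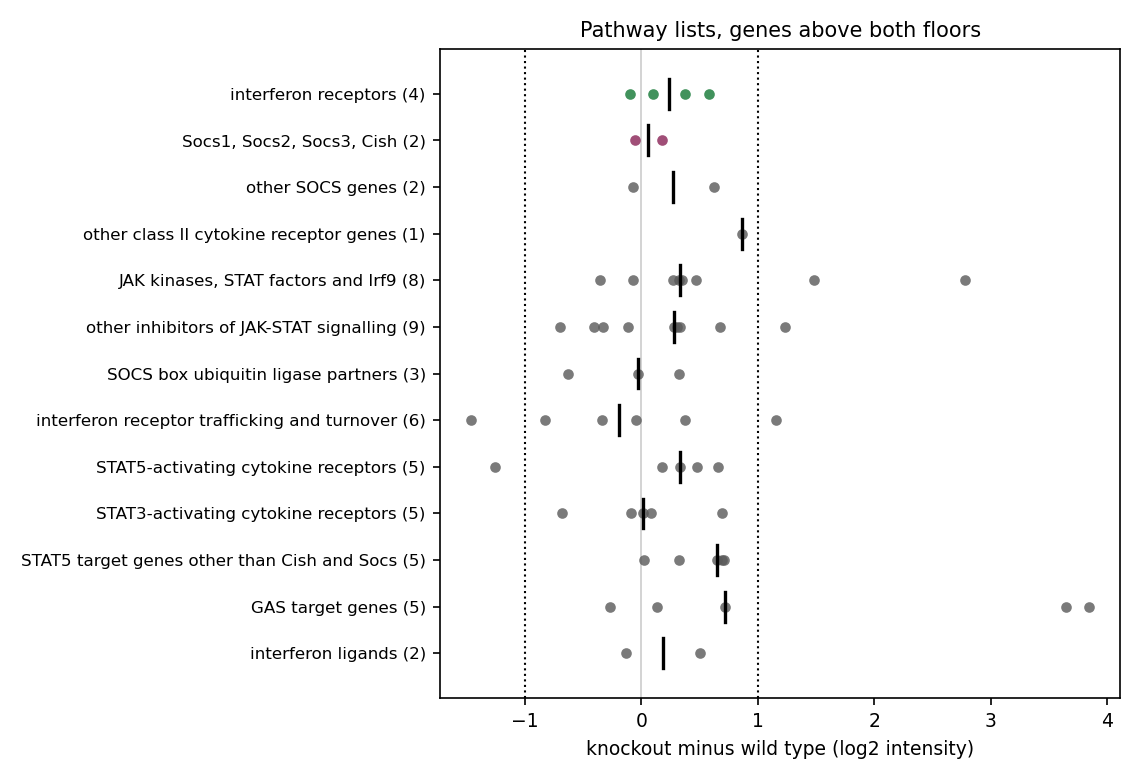
Knockout minus wild type difference, in log2 intensity, of each gene above the floor on both arrays, by gene list, with the number of such genes in brackets, the median as a black bar and 2-fold as dotted lines. The members lie inside the 2-fold lines, as do most of the other genes shown. Stat2, Jak2, Gbp2 and Gbp3, among others, lie to the right of them, and Btrc and Il7r lie to the left.

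Markers of other cell types also differed between the arrays, and their part in the values above was not tested. Some of these markers, named here for their high signal, were bright in wild-type and knockout cells alike. The neutrophil gene S100a9 read 15.37 and 15.39, and the haemoglobin gene Hba-a1 15.41 and 15.22. Which cells of the sample the member signal came from was not tested. In RNA of a whole sample, fewer cells of a type and less RNA per cell cannot be told apart. Of 11 stem cell markers, 5 passed the floor of the wild-type array and 6 that of the knockout array: Kit, Ly6a, Mecom, Esam and Tek were above both floors, Hlf was above that of the knockout only, and Procr, Slamf1, Fgd5, Hoxb5 and Ctnnal1 were below both. Their summed intensity in the knockout was 1.20 times that of the wild type. Of 16 neutrophil markers, 15 were above both floors, 3 were higher in the knockout by 2-fold or more, and their summed intensity was 1.40 times that of the wild type. The summed intensity of 12 monocyte and macrophage markers was 1.87 times as high in the knockout. Without Ctss, the gene of the protease cathepsin S, that ratio was 1.21, and 4 of the 9 monocyte and macrophage markers above both floors were lower in the knockout. The summed intensity of 11 B lineage markers was 0.183 times, of 11 erythroid markers 0.739 times, of 12 T and NK markers 0.564 times and of 8 megakaryocyte and platelet markers 0.379 times that of the wild type. Single genes carried much of some sums: the T and NK ratio was 1.08 without Cd2, the platelet ratio 0.634 without Ppbp and the erythroid ratio 0.490 without the haemoglobin gene Hba-a1, whereas the B lineage ratio was 0.189 without Cd72. Il7r, which B cell precursors use, was lower in the knockout as were the B lineage markers, and a link between them was not tested.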

How the data were processed

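The files deposited by the authors hold intensities, not logarithms, from single-colour (Cy3) NimbleGen arrays, 1 per group, summarised with RMA, per the submitters' processing notes, with no version named. RMA as generally defined equalises the distributions of arrays, so each difference is relative to the other genes. Per the file headers, 44155 of 44171 rows hold 3 probes, placed on MM9. Whether the first base is counted as 0 or 1 is not stated.

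Intensities were put on the log2 scale with no further normalization (Python 3.11.15, pandas 2.3.3). Symbols were updated by gene ID through RefSeq (GRCm38.p6). The row with the highest mean stands for a gene. The floor is the 95th percentile of 1025 receptor rows. A gene above it on 1 array has a bound against the other floor, and none where that ratio is under 1. The number of arrays limits the precision, and no p-value is given. The calls were checked on simulated data, with changes larger than those of the members and noise smaller than the row spread. That check therefore does not bear on the member differences.

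The members and gene lists were chosen with earlier results of these data known. Beyond the 8 members, the text names up to 3 genes of each list with the largest difference in size and those with a bound of 2-fold. Some genes outside that rule, such as Id1, Pim2, Osm, Ifnb1, Ifna2 and Socs4, were named with their values known. Alternatives were other floors, averaged rows, loess (span 0.3) or median centring, the series-wide table and folds of 1.5 and 3. Listed genes that no row matched (such as Usp18 and Socs7) were not analysed here, and 2 listed genes are not reported here.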

Additional observations from a re-analysis of the deposited data

How the results depend on the processing

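No member reached 2-fold under any of the 6 alternatives for its difference (0 of 48 values). Of those values, 47 moved by less than the row spread of 0.37. The exception was Cish, -0.24 from its brightest row and 0.14 with rows averaged. Many of the 48 values could not move, so these counts say little about robustness. Other floors do not enter a difference, the series-wide table holds the same data, and averaging leaves a member with 1 row unchanged. Socs1 and Cish, below both floors, are counted among the 48 too. Ifngr2 passed 1.5-fold only with loess centring (0.62) or median centring (0.62). Members above both floors numbered 4 with the 99th percentile floor, 7 with a floor at the all-row median and 5 with rows averaged. Ifngr2, the member with the largest difference, fell under the 99th percentile floor of the wild-type array (9.78 against 10.19), as did Socs2 (9.96). Genes at least 2-fold higher in the knockout numbered 496, and 291 with the 99th percentile floor, with 1056 at 1.5-fold and 220 at 3-fold. Genes lower numbered 387, and 241 with that floor, 199 with rows averaged, 1154 at 1.5-fold and 72 at 3-fold. The median of the GAS target genes was 0.72, and 1.22 with a floor at the all-row median and 1.31 with rows averaged. That of the receptor turnover genes went from -0.19 to 0.19 with rows averaged. The median of the other inhibitors, 0.28, was 0.08 with a floor at the all-row median and 0.02 with rows averaged. That of the SOCS box partners, -0.03, was 0.11 with rows averaged and 0.01 with loess centring. That of the STAT3 receptors, 0.02, was -0.04 with the all-row median floor, 0.13 with rows averaged and 0.10 with loess centring. That of the interferon ligands, 0.19, was -0.13 with the all-row median floor. The summed T and NK markers, 0.564 times the wild type, came to 1.08 times without Cd2. The cause of these shifts was not tested. The row spread, 2 alternative floors for it and marker sums without 1 gene were computed after seeing the data. No paired analysis was possible because each group has 1 array. Signal near the floor limits Socs1, Cish and most interferon genes.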
